A study of Mus musculus with 20 samples.

Results

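Gene expression in the prefrontal cortex was compared between mice that had lived through 13 days of social stress and control mice of the same time point. The comparison rests on the 5 arrays labelled 13 days of stress without a rest, out of 20 arrays used here, and these hold 3 of the study's 12 pairs of RNA pools. All mice were Swiss-Webster males, 12 weeks old at the start and housed singly from then on, with no genetic modification. Stressed mice were placed repeatedly into the home cage of a group of unfamiliar males of the same strain, while control mice, brothers of the stressed ones, were left undisturbed in an adjacent room, and both were killed one day after the last encounter. Each pool mixed RNA from 3 mice, so differences between single mice within a pool cannot be seen. The stress and the control pool were labelled with different dyes and hybridised to one 2-colour Agilent array. Among the arrays used here, pool 1 is on 1 array, with stress in the red dye Cy5. Pools 2 and 3 each have an original array and a dye-swap array. The paper describes 12 dye-swap arrays, more than are among the 20 used here. Each ratio was turned so that stress stands over control, arrays of one pool were averaged, and the resulting 3 values were tested in limma together with the pools of the other time points (acute stress, 8 days, and 13 days followed by a rest, here called recovery). Of 39429 non-control probes, 27050 were well above background in a channel on all 5 arrays, and these probes are described here. A call needed a p below 0.05 after Benjamini-Hochberg adjustment across all 39429 probes, together with a log2 ratio larger than 0.5 in size. A second fit entered all 20 arrays, blocked by slide, and is named the slide-block fit. It counts the original and the swap array of a pool as nearly independent (pool correlation 0.0488). Its smaller p values therefore do not rest on more pools.

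The frontal cortex takes part in the control of fear, social behaviour and the hormonal response to stress. Its tissue holds excitatory neurons and interneurons, astrocytes that clear transmitter and carry water and ions, oligodendrocytes that make myelin, and vessels with the blood inside them. A cover of meningeal fibroblasts lies on the surface of the tissue, and blood and meninges come along when the tissue is cut.

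Spots well above background made up 71.4% to 74.4% of an array, and 0 spots were saturated. The excitatory neuron markers Tbr1, Camk2a, Slc17a7 and Neurod6, which define the labelled tissue, were well above background on 5 of 5 arrays, at log2 normalized intensities of 10.94 to 13.53. Over the 27050 probes, the log2 ratios of the original and the dye-swap array of one pool had r of -0.386 in pool 2 and -0.146 in pool 3, so the arrays of one pool tended to have ratios of opposite sign once turned. The pools themselves had r of 0.116 (pools 1 and 2), 0.15 (pools 1 and 3) and 0.267 (pools 2 and 3). Pools 2 and 3 average arrays of both dye orders, which cancels a dye effect only where it is equal in size on both. Pool 1 has no swap array among those used here. The array of pool 3 with stress in Cy5 stood apart: its log2 ratios had the smallest SD over the 27050 probes (0.11, against 0.14 to 0.229 on the other 4 arrays), and several genes described below had ratios near 0 on it and not on its swap array. An average of pool 3 therefore joins unlike arrays, and a fit that takes pool 3 from its swap array alone, chosen after seeing the data, is given beside the calls. An unadjusted p under 0.05 was seen for 2832 probes after 13 days, or 7.18% of all, against 1949 for acute stress, 944 for 8 days and 1402 for recovery.

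After 13 days of stress, 8 probes were up-regulated, or 0.0296% of the 27050 probes (0.0203% of all 39429), and 1 was down-regulated, or 0.0037% (0.00254% of all). The 8 probes belong to 5 hemoglobin chain genes, to Alas2, Mgp and the unnamed transcript NAP026524-1, and the single lower probe is assigned to Lrrc49. In a further 3 genes the adjusted p was under 0.05 and the log2 ratio was under 0.5: Slc38a2, Ctgf and Msln, which brings the probes that passed the adjusted p to 12, or 0.0304% of all 39429. Just outside the threshold lay 1500015O10Rik (log2 ratio 0.65, adjusted p = 0.0748) and Ap2b1 (0.44, adjusted p = 0.0846). The number of limma calls depends on pools 1 and 2. Without pool 1 or without pool 2, 0 probes were called in either direction, and without pool 3 there were 9 higher and 6 lower ones. The adjusted p moved more than the ratios did. Hbb-b1 was at 1.68 without pool 1 and 1.46 without pool 2 (1.61 in full), with a limma adjusted p of 0.11 and 0.195. With pool 3 taken from its swap array alone, 11 probes were called higher and 1 lower, the added ones being 1500015O10Rik, Ap2b1 and Fam46c. The calls also rest on the offset of the background correction, which was set to 50 here, since an offset of 0 gave 0 calls in either direction. At an unadjusted p under 0.05, 4.13% of the 27050 probes were higher and 5.39% lower, and over all probes there were 2832 in the full fit and 1387, 2458 and 3311 without pools 1, 2 and 3.

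**Figure D1:**
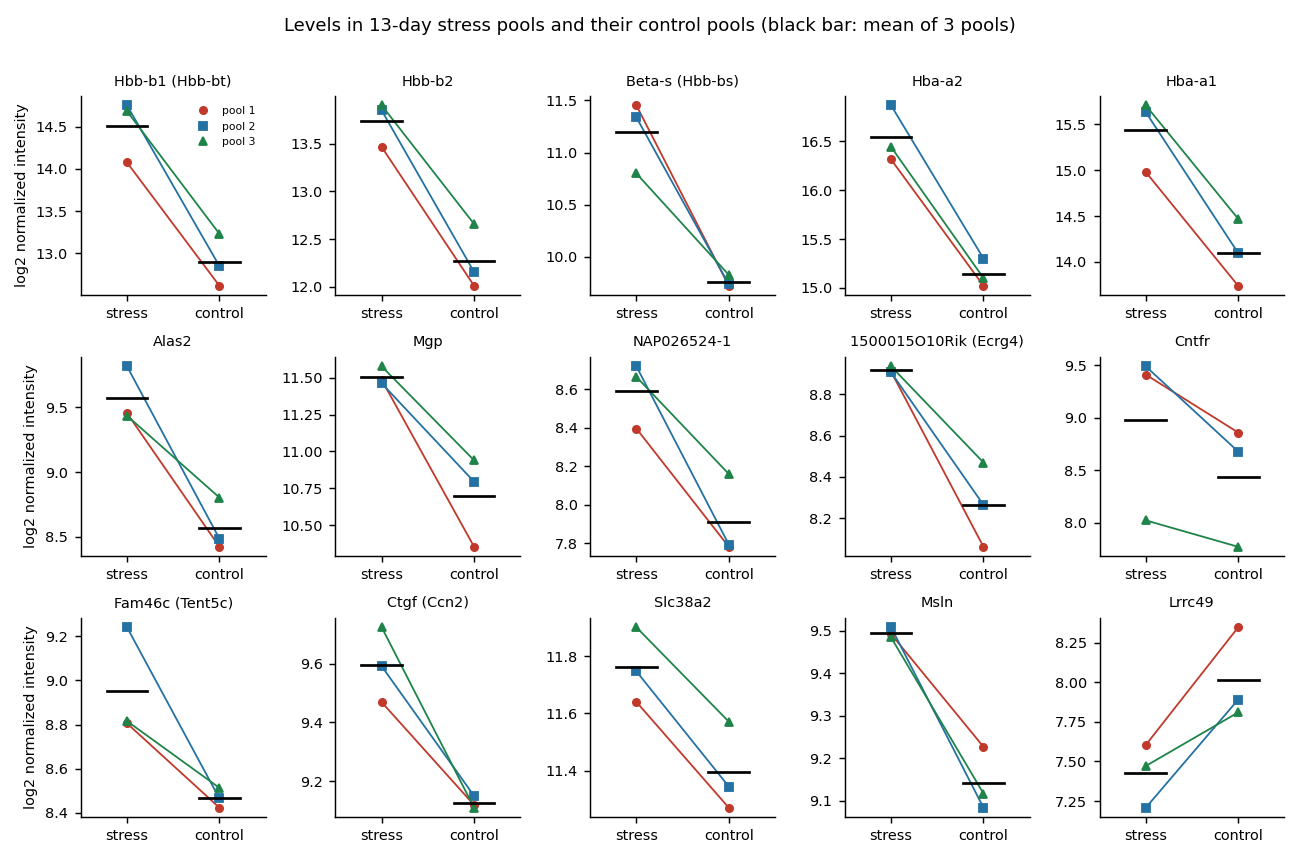
Log2 normalized intensity (vertical axis, its range set for each gene) of 15 genes in the 3 stress pools and the 3 control pools of 13 days, where a line joins the pools of one pair and the black bar is the mean of 3 pools. The pools of stress and control do not overlap in any gene shown except Cntfr, and Lrrc49 is the gene that is lower in stressed mice.

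Hemoglobin carries oxygen in red cells, and its chain genes were the most strongly up-regulated genes. The probe for Hbb-b1, a beta chain (named Hbb-bt in the present reference), had log2 intensities of 14.08, 14.75 and 14.69 in stress pools 1 to 3, against 12.61, 12.85 and 13.23 in control pools. Hba-a2, an alpha chain, had 16.31, 16.86 and 16.44 in stress pools, against 15.02, 15.30 and 15.10 in control pools. The lowest stress pool lay above the highest control pool in both genes, and in the other 3 chain genes (Hbb-b2, Beta-s and Hba-a1) too. Over all 27048 probes with a value in every pool, all 3 stress pools lay above all 3 control pools in 3.14%, and all 3 lay below in 3.23%. The 5 log2 ratios were 1.34 to 1.61 (SE 0.13 to 0.19 over 3 pools, limma adjusted p 0.00245 to 0.015). Since the chain genes are nearly alike, a probe may also read the RNA of another chain.

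Genes that make red cells what they are, other than hemoglobin, moved less. Alas2, the first enzyme of heme synthesis in red cell precursors, had log2 intensities of 9.45, 9.82 and 9.43 in stress pools and 8.42, 8.49 and 8.80 in control pools. It rose by 1.00 on the log2 scale (2.00-fold, SE 0.11 over 3 pools, limma adjusted p = 0.0091), with ratios of 1.03, 1.33 and 0.63 in the pools. The last of these averages 0.13 with stress in Cy5 and 1.13 with stress in Cy3, and Beta-s was at 0.44 on that Cy5 array, its lowest of 5. Hbb-b1 was at 1.53 and 1.38 on the same arrays and Hba-a2 at 1.72 and 0.96. Of 20 red cell genes other than hemoglobin that were well above background (31 were on the array), 5 were higher and 0 lower at an unadjusted p under 0.05, where 4.12% of 17218 genes were higher and 5.78% lower. The 5 were Alas2, the exonuclease Isg20 (0.37), the mitochondrial iron importer Slc25a37 (0.13), Fech, which inserts iron into heme (0.12), and Bpgm, which makes the regulator of oxygen release (0.18), and of these Alas2 alone passed the adjusted p. The median log2 ratio of the 20 genes was 0.08, against 1.43 for the hemoglobin chains and 0.00 for all genes. Without pool 1 or without pool 2 the count fell to 2 of 20. The erythroid factors Gata1 and Klf1 were not well above background on all 5 arrays. Summed over the 20 genes, the normalized intensity was 54500 to 58400 in stress pools and 50300 to 55100 in control pools, so the groups overlap. In a mixed tissue, more cells of a type and more RNA per cell cannot be told apart. The part of blood left in the tissue in these ratios was not tested.

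Promoters of hemoglobin genes and Alas2 are known for sites of the erythroid factors GATA1, which binds GATAA, and KLF1, which binds CACCC. The bases before the start of transcription are shown for 3 of the up-regulated genes, 5′ to 3′ on the strand of the gene (RefSeq, GRCm38.p6), with GATAA and CACCC on either strand in capitals. The stretches are those at chrX:150547317-150547416 (plus strand), chr11:32283477-32283671 (plus strand) and chr7:103827929-103828143 (minus strand, the gene called Beta-s on the array).
Alas2: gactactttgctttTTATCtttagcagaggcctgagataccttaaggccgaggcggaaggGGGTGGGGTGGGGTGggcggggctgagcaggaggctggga
Hba-a1: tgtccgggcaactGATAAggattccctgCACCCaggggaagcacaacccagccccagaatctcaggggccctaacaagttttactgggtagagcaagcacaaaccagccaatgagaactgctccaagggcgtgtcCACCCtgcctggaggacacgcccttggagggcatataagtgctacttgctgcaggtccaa
Hbb-bs: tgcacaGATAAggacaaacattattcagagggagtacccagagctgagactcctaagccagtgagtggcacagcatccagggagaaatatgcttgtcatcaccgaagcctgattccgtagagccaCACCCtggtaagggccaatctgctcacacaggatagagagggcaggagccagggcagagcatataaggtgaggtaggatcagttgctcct
In Alas2 the letters read TTATC and GGGTG because the match is on the other strand, and its 3 copies of GGGTG follow one another without overlap. In windows of 250 bases before to 50 bases after the start, 5 of the 5 genes of this group that have a window (of 6) hold both motifs, against 28.4% of 27025 genes for GATAA and 59.8% for CACCC. A match of letters is a description and shows no binding.

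Mgp encodes matrix Gla protein, a secreted protein that keeps calcium salts out of artery walls and cartilage, and it is made by vessel and meningeal cells. Its probe (mm9, chromosome 6, 136821125 to 136821184) had log2 intensities of 11.48, 11.46 and 11.58 in stress pools and 10.36, 10.79 and 10.94 in control pools. Stress pools thus lay close together, and the control pools were more spread. Mgp rose by 0.81 on the log2 scale (1.75-fold, SE 0.094 over 3 pools, limma adjusted p = 0.0091), and the pools were at 1.13, 0.67 and 0.64. Within pool 2 the ratio was 0.69 with stress in Cy5 and 0.64 with stress in Cy3, and within pool 3 it was 0.50 and 0.77. Without pool 1 the adjusted p was 0.11 at a ratio of 0.65, and without pool 2 it was 0.123 at 0.88.

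Meningeal fibroblasts lay down the matrix of the membranes around the brain. Of 30 marker genes of these cells, all well above background, 7 were higher and 1 was lower at an unadjusted p under 0.05 (23.3% and 3.33%, against 4.12% and 5.78% of all genes). Members and lists were chosen with earlier results of these data known, and the study names Mgp and Fbln1 for this time point. The share is therefore a description that is not independent of these data. Beside Mgp, the higher genes were Ogn, the collagen-binding proteoglycan osteoglycin, Nov, a secreted CCN family protein, the cell adhesion gene Cdh1, the imino acid transporter Slc6a20a, the matrix protein gene Fbln1 and the complement inhibitor gene Serping1. The lower gene was the organic anion transporter Slc22a8. Ogn had log2 intensities of 9.70, 9.70 and 9.77 in stress pools and 9.45, 9.43 and 9.53 in control pools, with a log2 ratio of 0.25 (SE 0.049, limma adjusted p = 0.196, and 0.0209 in the slide-block fit). That call was not kept with the pool number as a block (adjusted p = 0.1) or with a dye term (0.0718), and its arrays were at 0.25 in pool 1, 0.27 and 0.28 in pool 2, and 0.07 and 0.41 in pool 3. Nov was at 0.32 (SE 0.081, adjusted p = 0.392), the pools being at 0.46, 0.20 and 0.28, and the slide-block fit put its adjusted p at 0.0206, the pool-number block at 0.00682 and the dye term at 0.149. Fbln1 was at 0.29 (SE 0.11, adjusted p = 0.626), and pool 1 held most of it (0.64, 0.17 and 0.06). The median of the 30 ratios was 0.04, and without pool 1 the counts were 4 higher and 0 lower with a median of 0.00. The summed intensity of the 30 genes was 91200 to 111000 in stress pools and 85000 to 98000 in control pools, and it was higher in the stress pool of pairs 1 and 3 and lower in that of pair 2.

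Other lists of matrix genes held smaller shares at this level. Among 28 collagen chain genes, 4 were higher (Col3a1, Col8a2, Col9a1 and Col6a2, with log2 ratios of 0.09 to 0.25) and 1 was lower (Col11a2, -0.10), and 0 passed the adjusted p. Col3a1, the chain of collagen type III, had ratios of 0.27, 0.25 and 0.24 in the pools, which average unlike arrays (0.27 in pool 1, -0.01 and 0.51 in pool 2, and 0.02 and 0.46 in pool 3). Without pools 1, 2 and 3 the collagen counts were 2 higher and 2 lower, 4 and 1, and 2 and 2. Among 38 genes of matrix and its enzymes, Fbln1 included, 4 were higher and 3 lower, and without pool 1 these were 1 and 1. The basement membrane gene Nid1 (0.20) and fibronectin, Fn1 (0.13), were among the higher ones, and the perineuronal proteoglycans Bcan (-0.17) and Ncan (-0.12) among the lower. Timp1, an inhibitor of matrix-degrading enzymes, had log2 ratios of 0.44, 0.43 and 0.26 in pools 1 to 3 and did not pass, at 0.38 (SE 0.39, adjusted p = 0.923). That SE is pooled over all 12 pools of the fit.

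Msln and 1500015O10Rik are 2 further genes of membranes that line cavities. Msln encodes mesothelin, a surface protein of mesothelial cells, and had log2 intensities of 9.49, 9.51 and 9.48 in stress pools and 9.23, 9.08 and 9.12 in control pools. It rose by a log2 ratio of 0.35 (SE 0.052 over 3 pools, limma adjusted p = 0.0488), with 0.08 and 0.66 on the arrays of pool 3. 1500015O10Rik (Ecrg4) encodes augurin, a secreted peptide precursor of choroid plexus and leptomeninges. It had 8.91, 8.91 and 8.94 in stress pools and 8.06, 8.26 and 8.47 in control pools, a log2 ratio of 0.65 (1.57-fold, SE 0.10, adjusted p = 0.0748, and 5.6e-04 in the slide-block fit), and the arrays of pool 3 were at 0.08 and 0.86. It was also the single one of 11 choroid plexus markers well above background to reach an unadjusted p under 0.05, and 7 further markers on the array, Kcne2 and Cldn2 among them, were not well above background on all 5 arrays. The summed intensity of the 11 markers was 16100 to 17700 in stress pools and 17100 to 17200 in control pools.

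Ctgf (Ccn2) and Slc38a2 were higher in the stress pool of each of the 3 pairs. Ctgf encodes a secreted matricellular protein, and in cortex it also marks neurons of the deepest layer. It had log2 intensities of 9.47, 9.59 and 9.72 in stress pools and 9.12, 9.15 and 9.11 in control pools, and rose by 0.47 on the log2 scale (1.38-fold, SE 0.068 over 3 pools, limma adjusted p = 0.0403). Slc38a2 encodes SNAT2, a sodium-coupled carrier of neutral amino acids that cells make more of when amino acids run short. It had 11.64, 11.75 and 11.90 in stress pools and 11.27, 11.34 and 11.57 in control pools, and rose by 0.37 (1.29-fold, SE 0.050, adjusted p = 0.0222), with ratios of 0.37, 0.40 and 0.33. The arrays behind these means were less alike. Slc38a2 was at 0.15 and 0.66 in pool 2 and at 0.05 and 0.61 in pool 3, and Ctgf at 0.20 and 0.68 and at 0.17 and 1.05, the Cy5 array first. With pool 3 from its swap array alone, the adjusted p of Ctgf was 0.0602 and that of Slc38a2 was 0.00837. Leaving out any 1 pool took the adjusted p of Ctgf to 0.143, 0.334 and 0.205 and that of Slc38a2 to 0.247, 0.334 and 0.0875, with ratios of 0.40 to 0.53 and 0.35 to 0.39.

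Other genes of the amino acid stress response lay on both sides of 0. Of 21 genes on that list, 2 were higher and 4 lower at an unadjusted p under 0.05, which became 2 and 0 when the probes of a gene were averaged. The transcription factor gene Atf4 was at 0.13 beside Slc38a2, while the serine synthesis enzymes Psat1 (-0.13) and Phgdh (-0.12), the large neutral amino acid carrier Slc7a5 (-0.17) and Vldlr (-0.15) were on the lower side. The median of the list was -0.01.

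NAP026524-1 and Lrrc49 are the called probes without a settled transcript. NAP026524-1 is a 60-base probe for which the array gives neither a gene nor a position, and its log2 intensities were 8.40, 8.72 and 8.66 in stress pools and 7.78, 7.79 and 8.16 in control pools. The probe was not aligned to a genome or to other transcripts here, so whether it reads a hemoglobin transcript was not tested. It rose by 0.68 on the log2 scale (SE 0.090 over 3 pools, limma adjusted p = 0.0196). In pool 3 it was at 0.06 with stress in Cy5 and at 0.94 with stress in Cy3, so the arrays of that pool differed.
NAP026524-1 probe: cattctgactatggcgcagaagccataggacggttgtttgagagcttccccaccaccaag
Lrrc49 encodes a leucine-rich repeat protein of the tubulin polyglutamylase complex. The array holds a pair of probes for it on the minus strand of chromosome 9 (mm9), at 60417044 to 60417103 and at 60435388 to 60435447, and their first 30 bases, 5′ to 3′, show that they read different parts of the locus.
Lrrc49 probe that fell: gagggaagttgaaataagatagggctttga
Lrrc49 other probe: tggtaagatgcaggttagacatgatgagac
The first had log2 intensities of 7.60, 7.21 and 7.47 in stress pools and 8.35, 7.89 and 7.81 in control pools, and fell by 0.59 (log2 ratio -0.59, SE 0.071, adjusted p = 0.01). Slc16a10 and Prg4 probes that were well above background on 0 and 1 of 5 arrays had mean log2 intensities of 7.13 and 7.31. The stress signal of the Lrrc49 probe that fell was thus near background. Its well-above-background mark can come from the control channel, where this probe was brighter. On the 5 arrays its ratios were -0.74, -0.78, -0.59, -0.02 and -0.65, the -0.02 being pool 3 with stress in Cy5. Its size depends on the background correction, with -1.19 at a normexp offset of 0, -0.89 with no correction, -1.18 in the authors' value table and -3.10 in the scanner software's own ratio. Without pool 1 or pool 2 the adjusted p was 0.152 and 0.228. The other probe, matched to the RefSeq transcript of the gene, was at 0.26 (adjusted p = 0.517), higher on 4 of 5 arrays.

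The slide-block fit called 3 further probes with a log2 ratio over 0.5: that of 1500015O10Rik, described above, and those of Fam46c and Cntfr. Fam46c (Tent5c), a poly(A) polymerase active in red cell and plasma cell precursors, had log2 intensities of 8.81, 9.24 and 8.82 in stress pools and 8.42, 8.47 and 8.51 in control pools, with a ratio of 0.49 (limma adjusted p = 0.196, and 0.51 with 0.0129 in the slide-block fit). With the pool number as a block its adjusted p was 0.0191, and its pool 3 arrays were at 0.04 and 0.57. For Cntfr, the binding subunit of the receptor of ciliary neurotrophic factor, one probe was at 0.54 (adjusted p = 0.48, and 0.0374 in the slide-block fit) and the other at 0.00. The first did not pass with the pool number as a block (0.118) or with a dye term (0.13).

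Beyond the called genes, the next in order of p are shown with their pools. Among the 12 higher genes were Dbp and Per2 of the circadian clock, Slc6a11, the GABA transporter GAT3 of astrocytes, Ap2b1, a subunit of the clathrin adaptor AP2, Prg4, the joint lubricant lubricin, and Isg20. Among the 12 lower ones were Mlc1, a membrane protein of astrocyte endfeet, Otop2, a proton channel, Lrrc8b, a subunit of the volume-regulated anion channel, Hist1h1e (H1f4), a linker histone, and Pmepa1, an inhibitor of TGF-beta signalling. The rule for these genes asked for the same direction on all 5 arrays, which 867 of 27050 probes met on the higher side (3.21%) and 1416 on the lower side (5.23%), so the shared direction in the plot comes from the rule. Slc38a2, Ctgf and Msln passed the adjusted p among them and the other 21 did not (0.0846 to 0.199). The lower genes were at log2 ratios of -0.41 (Hist1h1e) to -0.19. A second probe of the same gene gave a like value for Dbp (0.39 and 0.37), Isg20 (0.34 and 0.37) and Pmepa1 (-0.23 and -0.22), but not for Zdhhc22 (0.26 and -0.11), Atxn7l1 (-0.27 and 0.06), Csmd1 (-0.24 and 0.05), Prg4 (0.29 and 0.04, the second well above background on 1 array) or Ttc12 (-0.21, -0.08 and -0.03).

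Of the genes the study names for this time point, those not given elsewhere did not pass the test. The platelet chemokine gene Ppbp was at a log2 ratio of 0.18 (SE 0.12 over 3 pools, limma adjusted p = 0.819), and pools 1 to 3 had 0.36, 0.19 and -0.01. Mndal, an interferon-inducible gene, was at 0.24 (SE 0.085, adjusted p = 0.569), with 0.42, 0.37 and -0.08. The myosin heavy chain gene Myh1 was at 0.32 (SE 0.089, adjusted p = 0.459), with 0.44, 0.31 and 0.21, and the aromatic amino acid carrier Slc16a10 was at 0.01 (SE 0.06, adjusted p = 0.997).

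**Figure D2:**
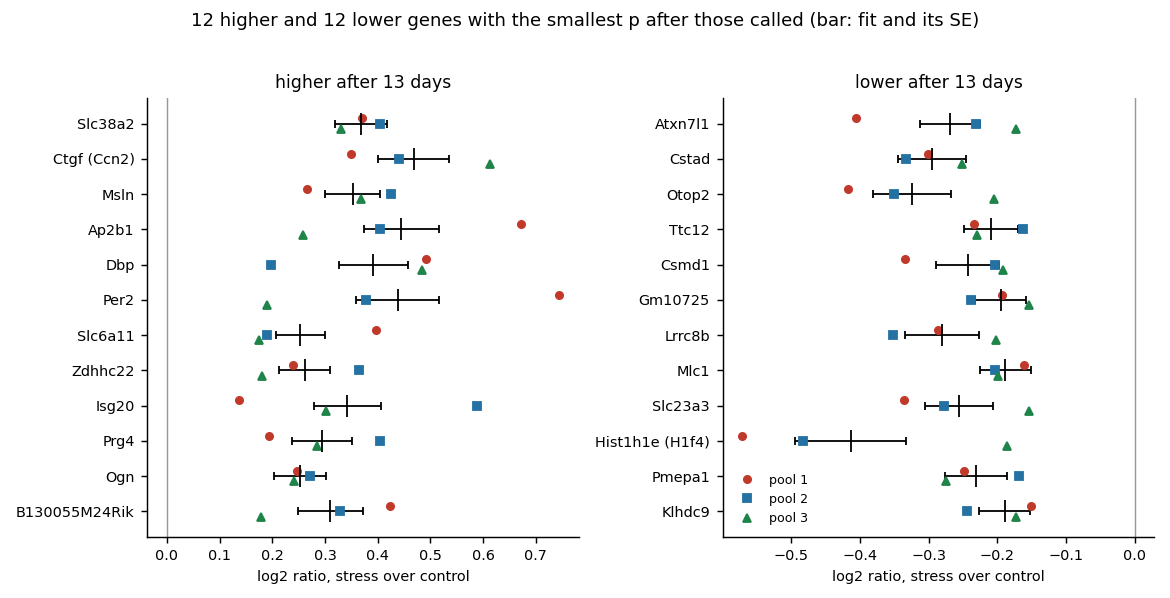
Log2 ratio of stress over control (horizontal axis) of the 12 higher and 12 lower genes with the smallest limma p after those called, in pools 1 to 3 (points), with the fitted ratio and its standard error (black bars). Slc38a2 lies at 0.37, 0.40 and 0.33 and Per2 at 0.74, 0.38 and 0.19, and the points of pools 2 and 3 are means of arrays that can differ more than the points do (0.05 and 0.61 for Slc38a2 in pool 3).

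Gene lists were then described by how many members reached an unadjusted p under 0.05, beside the share among all genes. Members of these lists and of those above were chosen with earlier results of these data known, so the shares describe and do not test. Of the 41 lists, those other than the hemoglobin, red cell, heme and meningeal ones held 0 called genes. Over the lists, 149 members had an unadjusted p under 0.05, and 94, 139 and 122 did without pools 1, 2 and 3.

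**Figure D3:**
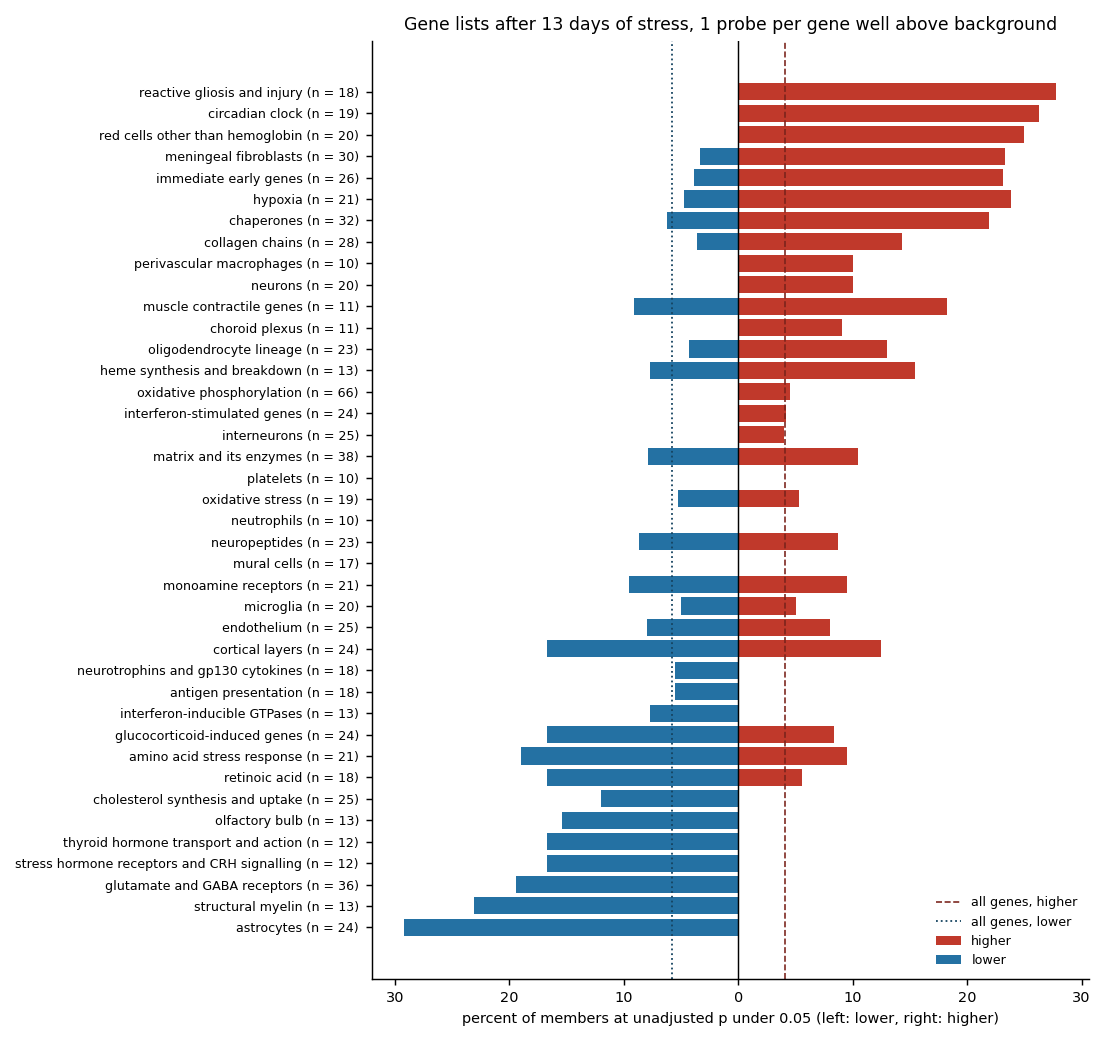
Percent of the genes of each list that were lower (left) or higher (right) at an unadjusted p under 0.05 after 13 days, with 1 probe per gene well above background and n the number of genes, hemoglobin left out. Vertical lines mark the shares among all 17218 genes, 4.12% higher and 5.78% lower, and lists run from reactive gliosis (27.8% higher, 0% lower) to astrocytes (0% higher, 29.2% lower).

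Astrocytes take up glutamate and potassium and steer water at the vessel wall. Of 24 astrocyte genes, 0 were higher and 7 were lower (29.2%, where 5.78% of all genes were lower), and the median ratio was -0.06. Slc6a11, the astrocyte GABA transporter gene named above, is not on this list and went the other way. Its log2 ratio was 0.25 (SE 0.046, limma adjusted p = 0.18). The glutamate transporter gene Slc1a2 had log2 intensities of 11.92, 11.56 and 11.78 in stress pools and 12.10, 11.98 and 12.10 in control pools. All stress pools lay below all control pools, and the ratio was -0.31 (SE 0.083 over 3 pools, limma adjusted p = 0.437), the pools being at -0.18, -0.43 and -0.32. The water channel gene Aqp4 was at -0.29 (SE 0.077, adjusted p = 0.433), with -0.26, -0.41 and -0.20. Mlc1 had 13.46, 13.60 and 13.09 in stress pools and 13.62, 13.80 and 13.29 in control pools, which overlap between pairs although each stress pool lay below its own control pool by a similar step (-0.16, -0.20 and -0.20). Its ratio of -0.19 (SE 0.037, adjusted p = 0.196) reached an adjusted p of 0.00948 in the slide-block fit and 0.00834 with a dye term, and 0.1 with the pool number as a block. The bicarbonate carrier Slc4a4 was at -0.22, with 0.01 in pool 3. Without each pool in turn 5 or 6 genes of the 24 were lower and 0 higher. The summed intensity of the list was 164000 to 168000 in stress pools and 164000 to 174000 in control pools.

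Glutamate and GABA receptors carry the main excitatory and inhibitory signals of cortex. Of 36 genes for their subunits, 0 were higher and 7 lower (19.4%) at an unadjusted p under 0.05, and 0 passed the adjusted p. Grin2b, a subunit of the NMDA receptor, was at -0.30 (SE 0.087, limma adjusted p = 0.483), the pools being at -0.24, -0.53 and -0.13, and Gabbr2, a subunit of the GABA-B receptor, was at -0.33 (SE 0.11, adjusted p = 0.527), with -0.35, -0.52 and -0.11. Grin2c (-0.17) and the kainate receptor subunit Grik4 (-0.13) followed. The median of the list was -0.04, and without pools 1 and 2 the lower genes numbered 3 and 4 of 36. Among 20 neuron markers 2 were higher, Snap25 (0.13) among them, and among 25 interneuron genes 1, Dlx5 (0.14), and 0 were lower in both lists. The summed intensity of the neuron markers was 255000 to 290000 in stress pools and 248000 to 294000 in control pools. Cortical layer genes were split, with 3 higher and 4 lower of 24, or 5 and 2 when the probes of a gene were averaged. The higher ones were Ctgf, Lmo4 (0.29) and Cplx3 (0.08), and the upper-layer factor Cux2 (-0.16) and the calcium-binding protein gene Calb1 (-0.17) were among the lower. Their summed intensity was 98400 to 99500 in stress pools and 92500 to 94000 in control pools, so these sums do not overlap, and their part in the single ratios was not tested.

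Genes of monoamine and peptide signalling had ratios on both sides of 0. Of 21 monoamine receptors, 2 were higher, the serotonin receptor Htr1a (0.16) and the adrenergic receptor Adra1d (0.15), and 2 were lower, the dopamine receptor Drd4 (-0.17) and the serotonin receptor Htr2a (-0.15), or 9.52% each way, against 4.12% higher and 5.78% lower among all genes, and without pool 1 0 were higher. Among 23 neuropeptide genes, Cartpt, whose peptide reduces feeding, was at 0.27 (0.34, 0.27 and 0.21 in the pools, limma adjusted p = 0.267) and the gastrin-releasing peptide gene Grp at 0.15. The precursors of thyrotropin-releasing hormone (Trh, -0.22) and of enkephalin (Penk, -0.16) were on the lower side. Of 12 genes of stress hormone receptors and CRH signalling, 0 were higher and 2 lower, the glucocorticoid receptor Nr3c1 (-0.21, with -0.41, -0.02 and -0.20 in the pools) and Hsd11b1, which regenerates active glucocorticoid (-0.16). Genes that glucocorticoids induce were split too, with 2 higher (Dusp1 and Per1) and 4 lower of 24, Klf9 (-0.19) and Pdk4 (-0.14) among the lower.

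Immediate early genes are switched on within minutes by neuronal activity and fade within hours. Of 26 such genes, 6 were higher and 1 lower (23.1% and 3.85%), and 14 were higher in all 3 pools, where 14.2% of all genes were. Fos, a subunit of the AP-1 factor, had log2 intensities of 8.66, 8.83 and 8.34 in stress pools and 8.20, 8.51 and 8.07 in control pools, with a ratio of 0.35 on the log2 scale (SE 0.11 over 3 pools, limma adjusted p = 0.508). The stress and control pools overlap because the pairs differ, and within each pair the stress pool was higher (0.45, 0.32 and 0.27). The phosphatase gene Dusp1 was at 0.32 (0.30, 0.40 and 0.26) and the neuronal factor Npas4 at 0.41 (0.29, 0.69 and 0.26). Arc, which acts at synapses, and the nuclear receptor Nr4a1, both picked out after their values were seen, were at 0.64 (0.43, 0.57 and 0.93) and 0.33 (0.19, 0.33 and 0.47). The lower gene was Gadd45g (-0.13). Without pools 1, 2 and 3 the count of higher genes was 4, 2 and 3 of 26. The median of the list was -0.04 for acute stress, 0.02 for 8 days, 0.08 for 13 days and 0.03 for recovery.

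Many immediate early promoters carry the site of CREB, whose core is TGACG. The bases before the start of 3 of these genes are shown, 5′ to 3′ on the strand of the gene (RefSeq, GRCm38.p6), with TGACG, or CGTCA where the match is on the other strand, in capitals. They lie at chr12:85473750-85473889 (plus strand), chr17:26508473-26508672 (minus strand) and chr19:4989972-4990161 (minus strand).
Fos: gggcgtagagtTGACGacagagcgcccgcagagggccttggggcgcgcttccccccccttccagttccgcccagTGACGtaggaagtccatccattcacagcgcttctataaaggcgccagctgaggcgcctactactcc
Dusp1: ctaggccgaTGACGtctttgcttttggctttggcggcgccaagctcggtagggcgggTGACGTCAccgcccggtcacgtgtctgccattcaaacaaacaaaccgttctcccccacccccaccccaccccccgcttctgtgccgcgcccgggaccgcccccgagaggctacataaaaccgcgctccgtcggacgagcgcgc
Npas4: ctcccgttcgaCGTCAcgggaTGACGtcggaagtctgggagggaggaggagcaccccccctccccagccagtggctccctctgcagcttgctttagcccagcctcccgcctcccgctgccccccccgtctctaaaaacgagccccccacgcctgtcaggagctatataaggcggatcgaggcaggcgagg
In Dusp1 the second match and the third, on the other strand, overlap within TGACGTCA. TGACG lies in the 300-base window of 14 of the 20 immediate early genes that have one, and of 5 of the 5 among those higher after 13 days, against 23% of all genes.

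Clock genes cycle over the day in most cells, and the time of killing sets their level. Of 19 clock genes, 5 were higher and 0 lower at an unadjusted p under 0.05 (26.3% higher). Dbp, a transcription factor at the output of the clock, had log2 intensities of 13.48, 13.52 and 13.49 in stress pools and 12.99, 13.32 and 13.00 in control pools. Its ratio was 0.39 (SE 0.066 over 3 pools, limma adjusted p = 0.115), and the stress pools lay above every control pool. Per2, a repressor within the clock, had 8.91, 8.89 and 8.49 in stress pools and 8.17, 8.51 and 8.30 in control pools, with a ratio of 0.44 (SE 0.079, adjusted p = 0.177). The repressors Per1 (0.24) and Bhlhe40 (0.25) and a probe that the array assigns to Nr1d2 (0.23) were the other 3. In the slide-block fit Dbp came to an adjusted p of 0.0206 and Per2 to 0.0343, and with the pool number as a block they were 0.0992 and 0.0378. Without pool 1 the higher genes numbered 2 of 19. The clock factors CLOCK and BMAL1 bind CACGTG, which stands in the promoter of Per1 at chr11:69098769-69098948 (RefSeq, GRCm38.p6, plus strand), in capitals here.
Per1: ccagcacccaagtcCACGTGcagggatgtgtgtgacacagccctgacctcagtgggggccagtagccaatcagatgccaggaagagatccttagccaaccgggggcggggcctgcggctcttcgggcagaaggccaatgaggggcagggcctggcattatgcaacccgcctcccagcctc
CACGTG lies in the windows of 5 of 16 clock genes and of 8.09% of all genes. It lies in 1 of the 2 windows found for the higher clock genes. The immediate early genes had a like share, 6 of 20, so the motif is not particular to the clock list.

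Chaperones fold proteins, and their genes respond to heat and to misfolded protein. Of 32 chaperone genes, 7 were higher and 2 lower, the higher ones including Sdf2l1 of the endoplasmic reticulum (0.25, with 0.34, 0.31 and 0.09 in the pools), the HSP90 partner Chordc1 (0.18) and the small heat shock protein gene Hspb1 (0.14). The cold-inducible RNA-binding protein genes Cirbp (-0.26, with -0.12, -0.28 and -0.37) and Rbm3 (-0.17), which cooling raises and warming lowers, were the 2 lower ones. Of 21 hypoxia-induced genes, 5 were higher and 1 lower. Adm, the vasodilator adrenomedullin, was at 0.23 (SE 0.037 over 3 pools, limma adjusted p = 0.106), the pools being at 0.29, 0.22 and 0.17, and Vegfa at 0.18, while the carbonic anhydrase gene Car12 was at -0.22. Of 18 genes of reactive gliosis and injury, 5 were higher and 0 lower (27.8% higher). Vim, the intermediate filament vimentin, was at 0.24 (SE 0.049, adjusted p = 0.23), with arrays at 0.23 in pool 1, -0.03 and 0.52 in pool 2, and 0.03 and 0.45 in pool 3, so that 4 of 5 were above 0. Cd14 had 0.47, 0.10 and 0.06 in the pools and Emp1 had 0.32, 0.32 and 0.08. No gene of these 3 lists passed the adjusted p in limma. Without pool 1 the higher genes numbered 2 in each of the 3 lists, and without pool 2 they were 3 of the chaperones, 2 of the hypoxia genes and 4 of the gliosis genes.

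Structural myelin genes, which oligodendrocytes use to wrap axons, had 0 higher and 3 lower members of 13. They were Mobp (-0.21, limma adjusted p = 0.356, while its other 2 probes were at 0.05 and 0.07), Opalin (-0.14) and Pllp (-0.11). Genes of the oligodendrocyte lineage were 3 higher and 1 lower of 23, with the lipid carrier Apod at 0.27 (0.49, 0.02 and 0.29 in the pools). Cholesterol synthesis and uptake had 0 higher and 3 lower of 25, Sc4mol (-0.24), Mvk (-0.13) and Insig1 (-0.11). Aldh1a3, which makes retinoic acid, was at -0.42 (SE 0.084 over 3 pools, adjusted p = 0.199, 0.0458 in the slide-block fit, and 0.11 with the pool number as a block), with log2 intensities of 7.49, 7.34 and 7.86 in stress pools and 8.10, 7.75 and 8.08 in control pools. Of 12 thyroid hormone genes 2 were lower, Dio2, which activates the hormone (-0.19), and Klf9. Among 25 endothelial genes the clotting factor gene Vwf was at 0.35 (0.66, 0.22 and 0.17) and Tie1 at 0.14, and the tight junction gene Cldn5 (-0.22, with -0.31, -0.17 and -0.19) and Egfl7 (-0.10) were lower. Without pools 1, 2 and 3 the endothelial counts were 0 higher and 2 lower, 2 and 4, and 6 and 1. The shares in mural cells (0 of 17), platelets (0 of 10), neutrophils (0 of 10) and microglia (1 higher and 1 lower of 20) were near or under those of all genes, and so was that of the 66 oxidative phosphorylation genes (3 higher and 0 lower).

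Interferon switches on GTPases and antigen presentation genes in most cells. After 13 days the medians of these genes had opposite signs in the pools. Over 13 interferon-inducible GTPases the median log2 ratio was -0.73 in pool 1, 0.41 in pool 2 and -0.23 in pool 3. Gbp4, picked out after its values were seen, was at -2.58, 0.62 and -0.89, and Igtp, likewise picked, was at -1.78, 0.51 and -0.63. The medians of 18 antigen presentation genes were -0.30, 0.16 and -0.21, and those of 24 other interferon-stimulated genes -0.08, 0.40 and -0.02. In the 3 lists the stress pool of pair 2 was on the higher side of its control and that of pair 1 on the lower side. In the fit of all pools 1 gene of the 13 (Iigp1, -0.09), 1 of the 18 (Tap1, -0.15) and 1 of the 24 (Ifi203, 0.16) reached an unadjusted p under 0.05, while 10 of the 13 GTPases did without pool 2, all lower.

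**Figure D4:**
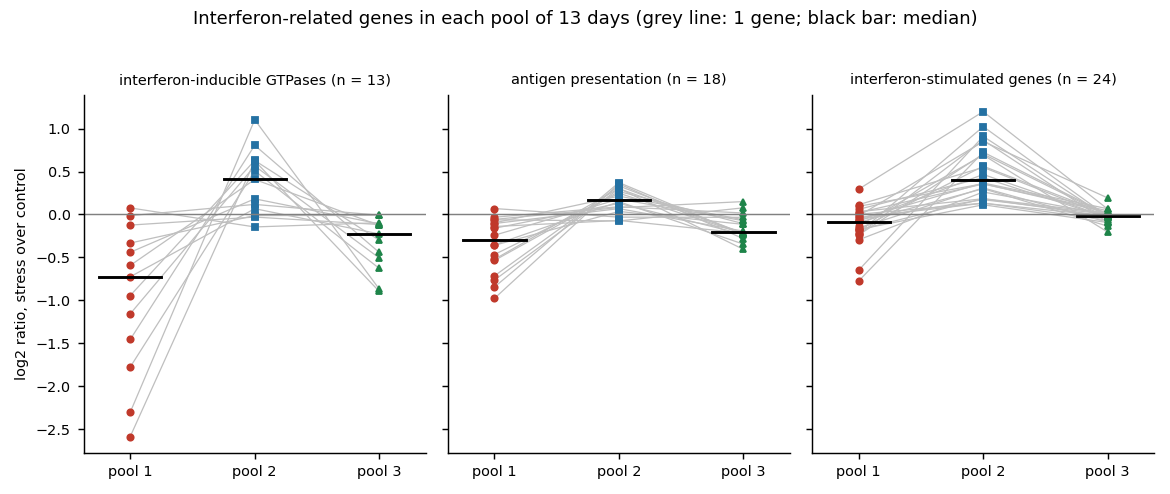
Stress over control as a log2 ratio (vertical axis) of the genes of 3 interferon-related lists in pools 1, 2 and 3 of 13 days, with a grey line per gene and a black bar at the median. The medians of the 13 GTPases are -0.73, 0.41 and -0.23, so the pools of one group lie on both sides of 0.

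The ratios after 13 days were also set against those of the other time points, each of which had control mice of its own. Of 39429 probes, 1 differed at an adjusted p under 0.05 from acute stress (0.00254%), 0 from 8 days and 0 from recovery, while at an unadjusted p under 0.05 there were 1850, 606 and 1947 probes (4.69%, 1.54% and 4.94%). The one probe is that of Mobp, a myelin protein gene. In the slide-block fit 25, 0 and 6 probes passed. Pools of one number shared slides and scan day at all time points (slide 1 for pool 1, slides 2 and 3 for pool 2, slides 4 and 5 for pool 3), and with that number as a block 10 probes differed from acute stress and 2 from recovery. Mgp stood at -0.01, 0.66, 0.81 and 0.06 in the order acute stress, 8 days, 13 days and recovery, and 13 days differed from recovery by 0.75 (SE 0.13, limma adjusted p = 0.416, and 0.00101 in the slide-block fit). Ogn was at -0.22 after acute stress and 0.25 after 13 days, a difference of 0.47 (SE 0.070, adjusted p = 0.102, and 0.00188 in the slide-block fit). Dbp was at 0.27, 0.17, 0.39 and -0.22 at the 4 time points in order, and differed from recovery by 0.62 (SE 0.093, adjusted p = 0.184, and 0.019 in the slide-block fit). Ctgf stood apart from acute stress by 0.57, from 8 days by 0.38 and from recovery by 0.52 (SE 0.096 each, adjusted p of 0.119, 1.00 and 0.416). The Lrrc49 probe that fell was at 0.06, -0.18, -0.59 and -0.06 in order. The count of probes that differ between time points thus depends on the fit. Entered as independent, with neither term, the 20 arrays gave 13 probes that differed from acute stress and 7 from recovery. That fit also counts swap arrays as separate samples, so the part of slide or pool number in these counts was not tested. A p above the threshold does not show that the time points are alike.

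**Figure D5:**
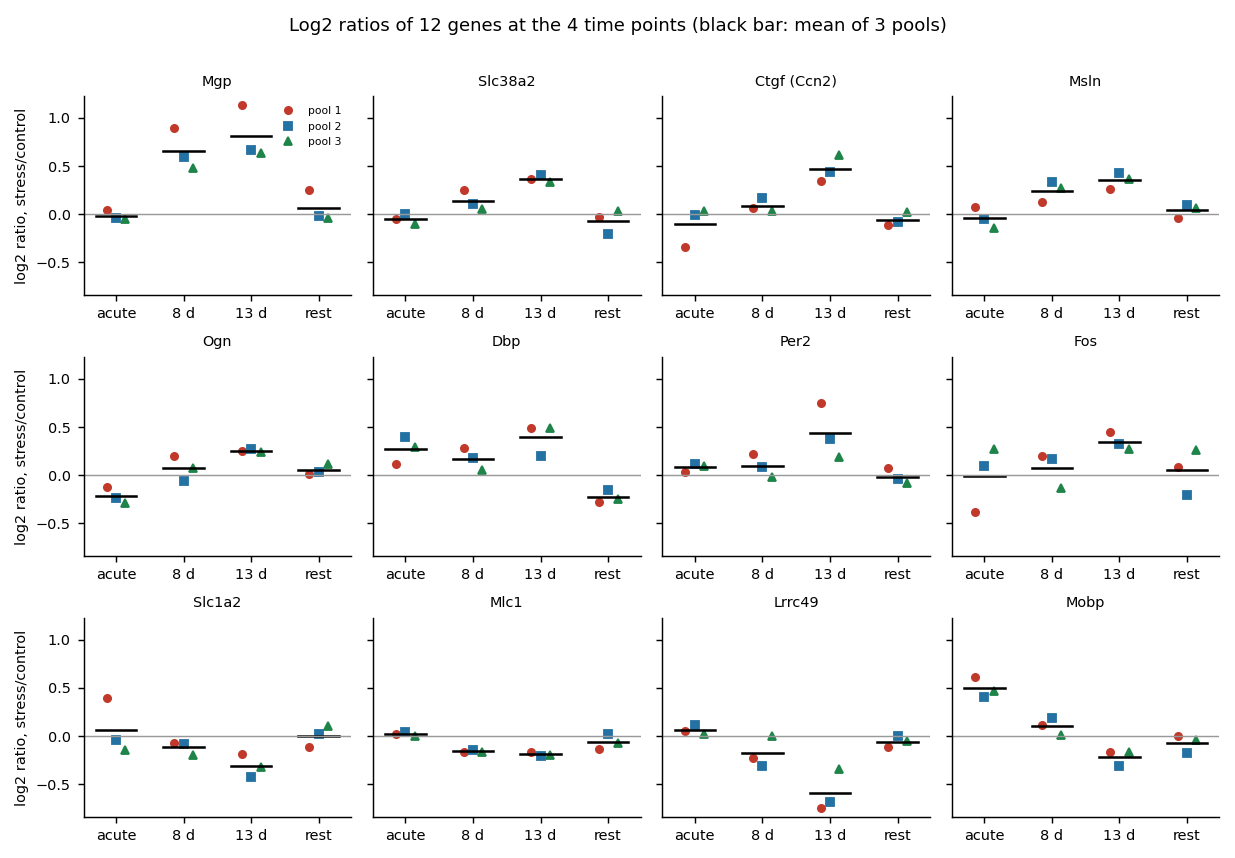
Stress over control as a log2 ratio (vertical axis) of 12 genes after acute stress, 8 days, 13 days, and 13 days followed by a rest of 5 days (rest), with points for pools 1 to 3 and a black bar at their mean. Mgp lies at -0.01, 0.66, 0.81 and 0.06, and Mobp at 0.49, 0.11, -0.21 and -0.07.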

How the data were processed

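The authors hybridised pools to Agilent 4x44K v2 mouse arrays and read them with Agilent Feature Extraction. The deposited scanner tables hold red and green spot intensities and backgrounds and a log10 ratio of red over green, and the authors' value table holds log2 ratios, turned to stress over control. The scanner tables also hold 0 or 1 marks for outlier, control and well-above-background spots.

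After the study's methods, mean intensities went through limma 3.58.1 (with statmod 1.5.0, under R 4.3.3): normexp background correction, loess within and Aquantile between arrays. The normexp offset of 50 was chosen here. The authors' table fits an offset of 0, with r of 0.9748 to 1 on the 13-day arrays. Normalization ran with weight 0 for control and outlier spots. The 43020 non-control spots were averaged to 39429 probes, swaps turned and averaged with their originals, and 12 pools fitted with a coefficient per time point and eBayes (prior degrees of freedom 4.86). An intensity of a pool is its mean log2 intensity plus or minus the ratio divided by 2. An SE is that of the fit over all 12 pools. The slide fit takes the 20 arrays with 5 slides as a block and the pool as a random block (correlation 0.0488), which counts swaps as nearly independent arrays. The number of arrays limits the precision.

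Named were: called probes in either fit; the 12 higher and 12 lower genes of smallest p that go one way on all 5 arrays; genes that the study names for this time point; and of each of 41 lists at most 4 members of smallest p. A list uses the brightest probe of a gene. A name beyond these was chosen after its values were seen, such as the further members named where a list has few. Members and lists were chosen with earlier results of these data known. Probe positions are mm9 as the arrays give them, and 27427 probes matched RefSeq. The limma steps were tested on simulated data. Alternatives tried were other background corrections and normalizations, the authors' values, other fits and each pool left out.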

Additional observations from a re-analysis of the deposited data

Results flagged for a closer look

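Mobp encodes a protein of the myelin sheath, and 1 of its 3 probes differed between time points: its log2 ratio after 13 days minus that after acute stress was -0.707 (SE 0.074, limma adjusted p = 0.0131). It was picked out because this difference passed the test of the difference itself, the one probe of 39429 to do so. After 13 days the ratios of pools 1 to 3 were -0.16, -0.31 and -0.16, against 0.61, 0.41 and 0.47 after acute stress, so all pools of one time point lay below 0 and all of the other above it. The arrays behind the pools after 13 days were less alike (-0.16 in pool 1, 0.07 and -0.69 in pool 2, -0.01 and -0.31 in pool 3), and the other 2 probes of Mobp were at 0.05 (adjusted p = 0.911) and 0.07 after 13 days. These probes differed from acute stress by -0.28 (adjusted p = 0.403) and -0.03 (adjusted p = 1.00), the last of them well above background on 2 of 5 arrays. A fit that blocks on the slide gave the first probe an adjusted p of 0.0347 and the others 0.267 and 0.869.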

How the results depend on the processing

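Of 136 probes named, each under 18 other settings, 2258 of 2447 values kept their direction and side of the threshold. Most of these probes did not pass in the main fit, so this count says little about the 12 that did. Leaving out normalization between arrays gave the called probes the same ratios and adjusted p as the main fit. Keeping only probes well above background left their ratios unchanged. These settings are counted among the 18, although they could change little. The called probes had an adjusted p under 0.05 in 10 or 11 of the 18 settings. Msln, Slc38a2 and Ctgf had it in 7, 9 and 6. Those that turned sign were the Slc16a10 probe (0.01 as reported, -0.0235 with the median signal, -0.158 with median centring, -0.0322 with a dye term, -0.0187 with a slide block, -0.0187 with arrays as independent, -0.0123 with pool 3 from its Cy3 array alone and -0.0545 to 0.0361 with a pool left out, the lowest without pool 1), the second Cntfr probe (0.00 as reported, 0.0021, 0.0628, 0.0114, 0.013 and 0.014 in the same order up to arrays as independent, and -0.0445 to 0.0401 with a pool left out) and Col9a1 (0.09 as reported, -0.0195 with median centring). The 8 higher and 1 lower probes called became 0 and 0 under 4 settings (offset 0, median centring in place of loess, the authors' table, eBayes with trend and robust), 3 and 0 with the Feature Extraction ratio, and 5 and 0 with the 3 pools of 13 days alone. Leaving out a pool gave 0 to 9 and 0 to 6. The 2832 probes at an unadjusted p under 0.05 became 39 with median centring, 4316 with a slide block and 1387 to 3311 without a pool, and the 2283 probes that go one way on all 5 arrays became 305 with median centring. The 149 list members at that p became 94 to 139 with a pool left out, the fewest without pool 1, alternatives chosen after seeing the data. Against acute stress, the 1 probe became 0 with offset 0, median centring, the Feature Extraction ratio, the authors' table, and trend and robust, 2 without background correction, 3 with the median signal, 20 with a dye term, 25 with a slide block, 13 with arrays as independent, 11 with pool 3 from its Cy3 array alone, and 0 to 4 without a pool. Against recovery, 0 became 7 with a dye term, 6 with a slide block, 7 with arrays as independent, 5 with pool 3 from its Cy3 array alone, and 0 to 1 without a pool. Against 8 days, 0 became 3 with pool 3 from its Cy3 array alone, a setting chosen after seeing the data.

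The Mobp difference kept its sign and lost the threshold with offset 0 (-0.77), median centring (-0.72), the Feature Extraction ratio (-0.84), the authors' table (-0.77), trend and robust (-0.71), arrays as independent (-0.69) and without pool 1 or 2 (-0.73 and -0.66). Over its settings with a pool left out it was -0.73 to -0.66. Pools with one number are not known to share animals but share slides and scan day at all time points, and their deviations had r of -0.03 to 0.51, over 0.1 in 8 of 9 pairs. With the pool number as a replicate block, 9 higher and 1 lower probes were called, 4757 reached an unadjusted p under 0.05, 10 differed from acute stress and 2 from recovery. The cause of these differences was not tested. With 3 pools, and 1 array of pool 1, small ratios and dim probes are the least certain.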
